A study of Homo sapiens with 20 samples.

Results

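The comparison described here is between the mRNA footprints held by eIF1 complexes and those held by eIF4G1 complexes in HEK 293T cells that received only the solvent. It uses 6 of the 20 libraries of the series, 3 of eIF1 and 3 of eIF4G1, chosen by their labels as DMSO libraries of these immunoprecipitations, and all 19029 gene IDs of the tables. HEK 293T is a transformed human embryonic kidney line, and the labels give its genotype as WT in every library. Cells of both groups were held for 1 h in DMSO, fixed with formaldehyde, lysed and digested with RNase I, and the small-subunit complexes were separated by ultracentrifugation and pulled down. The eIF1 group was pulled down through an HA tag on eIF1, and the eIF4G1 group through eIF4G1 itself. The sources used here do not give how the tagged eIF1 was brought into the cells, or at what level. Factor, tag and antibody therefore cannot be told apart in any difference below, and no input library was analysed here.

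Both factors act in the first steps of translation. eIF1 sits on the small ribosomal subunit near the P site, keeps the subunit open for scanning and makes it reject poor start codons, and it leaves when a start codon is recognised. eIF4G1 is the scaffold of the cap-binding complex eIF4F: it joins the cap-binding protein eIF4E, the helicase eIF4A and the poly(A)-binding protein, and through eIF3 it brings the small subunit to the mRNA. The title of the series names the pair as the target of an inhibitor. The solvent libraries give the relative shares of mRNA footprints in the complexes of each partner, in cells that did not receive that inhibitor.

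The tables give Ensembl gene IDs, and 0 of the 19029 IDs could be paired with a symbol here. Genes are therefore given by ID, their functions were not assigned, and 28 gene lists (ribosomal proteins, respiratory chain, histones, initiation factors and others) were not run. For the same reason the gene that encodes the tagged factor was not looked up, and markers of HEK 293T or of other cell types were not checked. What follows describes the genes by level, sequence length and their values in other libraries.

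The eIF1 libraries, called a, b and c, held 806429 to 1161512 counts, and the eIF4G1 libraries, numbered 1 to 3, held 243145 to 1003544. Replicates differed by more than counting noise, with a chi-square over its degrees of freedom of 3.95 to 11.2 in eIF1 and of 4.08 to 4.20 in eIF4G1, so none was counted as a duplicate. Across the 9463 genes tested, Spearman's rho between libraries was 0.866 to 0.901 within eIF1, 0.770 to 0.860 within eIF4G1 and 0.733 to 0.870 between them, so the ranges within and between groups overlapped. These are descriptions across genes, which are not replicates.

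Most genes did not pass the test between the complexes of both factors, and a minority did. Of 9463 genes tested, 392 (4.14%) were higher in eIF1 and 123 (1.3%) were lower, 515 (5.44%) in all, by edgeR's quasi-likelihood test at an adjusted p under 0.05. The typical called difference was moderate, with a median log2 difference (eIF1 minus eIF4G1) of 1.31 for the higher genes and -1.26 for the lower ones. Of the higher genes, 316 differed by 2-fold or more, 71 by 4-fold or more and 13 by 8-fold or more. Of the lower genes, 97, 16 and 4 reached these sizes. Over all tested genes the median log2 difference was -0.03, the middle 50% lay between -0.40 and 0.37, and the median standard error (SE) was 0.39.

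The number of genes on each side depended on how the libraries were scaled. The main scaling, the trimmed mean of M-values (TMM), gave factors of 0.807 to 0.960 to the eIF1 libraries and 1.08 to 1.18 to the eIF4G1 libraries, so the groups did not overlap. Scaling to total counts moved the median log2 difference of all genes to -0.35 and gave 177 higher and 523 lower genes, which took the higher genes from 76.1% to 25.3% of the calls. Without ENSG00000173812, the gene with most counts in eIF1, total counts gave a median of -0.22 with 248 higher and 282 lower, and TMM gave 407 and 120. DESeq2 size factors gave 398 higher and 119 lower genes, 77% of calls higher, and the DESeq2 test gave 342 and 84, 80.3% higher. A statement that more genes were higher than lower in eIF1 therefore holds on the TMM and DESeq2 scales, and not on total counts. With every library thinned to 243145 counts, TMM gave 249 higher and 86 lower genes, 74.3% of calls higher.

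Single libraries also moved the counts. Without eIF1 a there were 149 higher and 31 lower genes, without eIF1 c 233 and 35, without eIF4G1 1 249 and 54, and without eIF4G1 2 277 and 62. The numbers were 442 and 106 without eIF1 b, and 346 and 114 without eIF4G1 3. One fit to all 20 libraries gave 162 higher and 32 lower. Of the called genes, 383 higher and 111 lower had no overlap in CPM (counts scaled to library size) between the 3 eIF1 and the 3 eIF4G1 libraries, and 9 and 12 did overlap. Among all tested genes, 1171 (12.4%) lay apart on the higher side and 1039 (11%) on the lower side, which is the background for those counts.

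**Figure D1:**
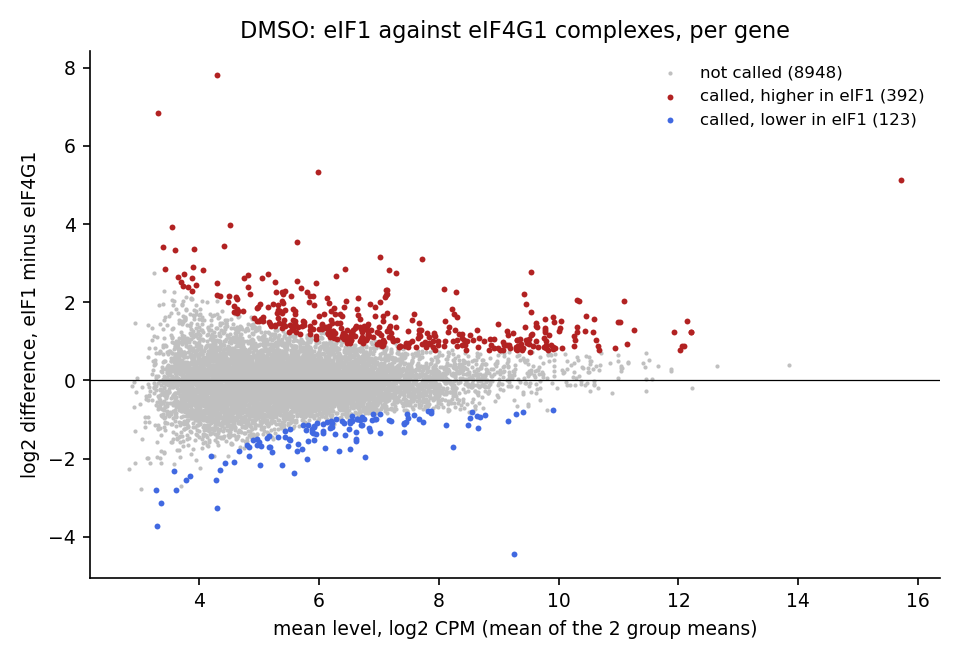
Log2 difference (eIF1 minus eIF4G1, DMSO) against mean level in log2 CPM, 1 point per tested gene; red points are the 392 genes called higher in eIF1, blue points the 123 called lower, grey points were not called. The highest called points on the left are genes of low level, and the single red point far to the right is ENSG00000173812.

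One gene stood apart in every eIF1 library. ENSG00000173812, counted on a sequence of 2338 nt, was at 176059, 57783 and 79844 CPM in eIF1 a, b and c and at 2789.95, 1970.45 and 4223 CPM in eIF4G1 1, 2 and 3. Its lowest eIF1 library was far above its highest eIF4G1 library, and eIF1 a was the highest of its group. The log2 difference was 5.13 (SE 0.34, edgeR adjusted p = 3.80e-13), from means of 104562 ± 62893 CPM (SD, n = 3) against 2995 ± 1140.3 CPM (SD, n = 3). It took 14.01%, 5.45% and 7.22% of all counts in eIF1 a, b and c and ranked first in each, against 0.297%, 0.226% and 0.455% in eIF4G1 1, 2 and 3. It was also first in the 3 eIF1 libraries treated with i14G1-12, at 6.24% to 16.7% of counts. In HA-tagged eIF2a libraries, which were pulled down through the same tag, it held 0.136% to 0.158%, and in eIF3 libraries 0.0848% to 0.225%, all below the lowest eIF1 library. The parts of the factor, the tag and the cells in this share cannot be told apart. The gene that encodes the tagged factor was not looked up, so ENSG00000173812 may be that gene.

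The gene with the highest fitted difference was counted in eIF1 complexes and not at all in eIF4G1 complexes. ENSG00000156475, with a sequence of 10828 nt, had 60, 12 and 29 counts in eIF1 a, b and c, or 64.9, 13.4 and 39.7 CPM, and 0 counts in all 3 eIF4G1 libraries. The eIF1 libraries varied among themselves by several fold, but each lay above every eIF4G1 library. A count of 0 over the eIF4G1 group allows up to 1.88 CPM, at 3 counts in 1596246. The 101 counts pooled over the eIF1 group were 18.4-fold above that limit, on total counts without TMM. This ratio leaves out counting error and spread among the eIF1 libraries. The gene was called higher in eIF1 (edgeR adjusted p = 6.10e-05). The same split returned under i14G1-12, with 21, 13 and 17 counts in the eIF1 libraries and 0 in the eIF4G1 libraries. In eIF2a and eIF3 libraries it had 0 or 1 count each.

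Among genes lower in eIF1 with no overlap and at least 20 CPM in eIF4G1, the largest difference was that of ENSG00000269226, a short sequence of 652 nt. It was at 2.16, 3.36 and 5.48 CPM in eIF1 a, b and c and at 30.9, 42.3 and 34.3 CPM in eIF4G1 1, 2 and 3. All 3 eIF4G1 libraries were higher than all 3 eIF1 libraries, though the eIF1 values rest on 2, 3 and 4 counts. The log2 difference was -3.25 (SE 0.65, edgeR adjusted p = 0.00152), and it kept the threshold without any 1 library (edgeR adjusted p of at most 0.0188).

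ENSG00000101680, with a sequence of 9642 nt, came next among the genes that met these conditions. It was at 4.33, 0 and 4.11 CPM in eIF1 a, b and c and at 15.9, 14.9 and 34.3 CPM in eIF4G1 1, 2 and 3, with eIF4G1 3 the highest. The groups did not overlap, but the log2 difference of -2.81 (SE 0.83, edgeR adjusted p = 0.0373) lost the threshold without any 1 of the 6 libraries (edgeR adjusted p from 0.0878 to 0.170). Both of these lower genes were too low in the i14G1-12 libraries to be tested there.

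**Figure D2:**
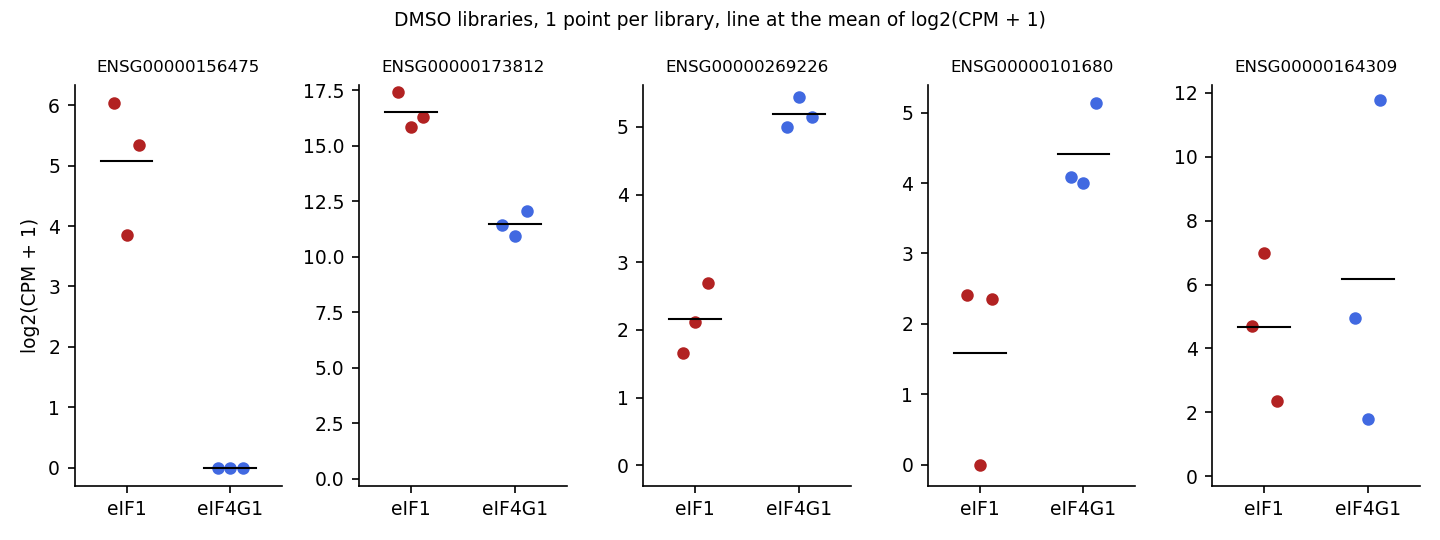
log2(CPM + 1) of 5 genes in the 3 eIF1 (red) and 3 eIF4G1 (blue) DMSO libraries, 1 point per library, with a line at each group's mean of the plotted values; each panel has its own vertical scale. The points of the first 4 genes do not overlap between groups, while in the last, ENSG00000164309, a single eIF4G1 library lies far above the rest.

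The 12 genes with the largest differences on each side, taken among called genes with no overlap and at least 20 CPM in the higher group, were mostly of low to middle level. Besides ENSG00000173812, the other higher genes ranged from 21.7 to 376 CPM in eIF1 and from 0 to 44.6 CPM in eIF4G1. The 12 had log2 differences of 2.91 or more and sequences of 1200 to 10828 nt. The 12 lower genes reached 21.7 to 176 CPM in eIF4G1 and 2.81 to 41.8 CPM in eIF1, with log2 differences of -1.95 or lower and sequences of 652 to 9642 nt. In all, 380 higher and 107 lower genes met these conditions.

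A called gene need not differ in every library. ENSG00000164309, singled out after its values were seen, had the lowest log2 difference of all called genes, -4.44 (SE 0.96, edgeR adjusted p = 0.00300). It was at 24.9, 125 and 4.11 CPM in eIF1 a, b and c and at 29.97, 2.49 and 3483 CPM in eIF4G1 1, 2 and 3. Only eIF4G1 3 was high, and the other libraries of both groups overlapped. Leaving out eIF1 b gave -6.16. Without eIF4G1 3 its log2 difference was 1.40 and did not pass (edgeR adjusted p = 0.260).

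Few genes were counted in every library of one group and had 0 counts in all libraries of the other. At full depth, 60 genes had at least 1 count in each eIF1 library and 0 in all eIF4G1 libraries, and 17 genes showed the reverse, but the eIF1 group held 2913945 counts and the eIF4G1 group 1596246. With ENSG00000173812 left out and every library thinned to 242038 counts, the numbers were 41 and 51. At a minimum of 3 counts in each thinned library they were 3 and 4. After both changes there were not more genes counted in eIF1 alone than in eIF4G1 alone; the changes were not made one at a time. At full depth, 2 genes had at least 10 counts in each eIF1 library and 0 in eIF4G1, among them ENSG00000156475, and 0 genes had the reverse.

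The most counted genes were mostly shared. Of the 100 genes with the largest shares of counts in each group, 78 were in both lists, and of the first 10 in each, 6 were. These lists rank shares of counts and not levels per length.

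Each eIF1 library was more concentrated on its leading genes than each eIF4G1 library, also with ENSG00000173812 left out. Then 50% of the counts fell on 572, 696 and 659 genes in eIF1 a, b and c and on 828, 1059 and 889 genes in eIF4G1 1, 2 and 3. The 10 most counted of these genes held 6.79% ± 0.60 of eIF1 counts and 5.10% ± 0.48 of eIF4G1 counts (SD, n = 3 each). At a depth of 242038 counts, 10 or more counts were held by 5000 ± 158 eIF1 genes and 5545 ± 343 eIF4G1 genes (SD, n = 3 each). In each of these 3 measures the groups did not overlap, and an exact permutation test, taken on both sides, gave p = 0.1, which 3 libraries against 3 cannot go below (0.133 after adjustment for 4 such tests). The number of genes with any count at that depth, 11346 ± 129 in eIF1 and 11432 ± 191 in eIF4G1, did overlap (SD, n = 3), with p = 0.6 by the same exact permutation test.

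Calls were most frequent among abundant genes, and most of the calls there were higher in eIF1, on the TMM scale, while the larger number of abundant genes was not called. With the tested genes ranked by level and split into 4 equal parts, 9.43% of the most abundant part (median 149.8 CPM) were called higher and 2.07% lower. In the least abundant part (median 17.1 CPM) these were 1.65% and 0.676%. The sizes ran the other way, from a median log2 difference of 1.11 among called higher genes of the most abundant part to 2.52 in the least abundant. For called lower genes they were -0.999 and -2.41. The median SE was 0.26 in the most abundant part and 0.61 in the least abundant, so a difference had to be larger to be called among scarce genes. Of all genes of the most abundant part the median log2 difference was 0.03, and of the least abundant -0.07.

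Calls in both directions fell more often on short sequences. Of the genes with sequences of 276 to 2089 nt, 6.59% were called higher and 2.37% lower. Of those with 5401 to 34626 nt, 2.28% were called higher and 0.846% lower. The median length was 2414 nt for the higher genes, 2269 nt for the lower genes and 3468 nt for all tested genes. Over all tested genes the difference moved little with length, towards eIF1 for longer sequences: the median log2 difference was -0.08 for the shortest and 0.04 for the longest part, and Spearman's rho between log2 difference and length was 0.0573 across 9463 genes. It lay between 0.00826 and 0.120 when 1 library was left out. Within the 4 parts by level, from least to most abundant, rho was 0.0799, 0.0953, 0.1004 and 0.0207.

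Short sequences were also counted more, with a median of 60.2 CPM in the shortest part and 38.8 in the longest, so level and length moved together. Within the most abundant genes, 12.9% of the 889 in the shortest part and 4.75% of the 442 in the longest were called higher. Within the least abundant genes, 1.36% of 442 and 1.2% of 667 were. The length is that of the whole counted sequence and not of the 5′ leader on which complexes scan. Sequences of the shortest part held 46.0%, 42.2% and 44.2% of the counts in eIF1 a, b and c (ENSG00000173812 left out) and 42.9%, 38.7% and 42.1% in eIF4G1 1, 2 and 3. These shares overlapped between the groups.

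**Figure D3:**
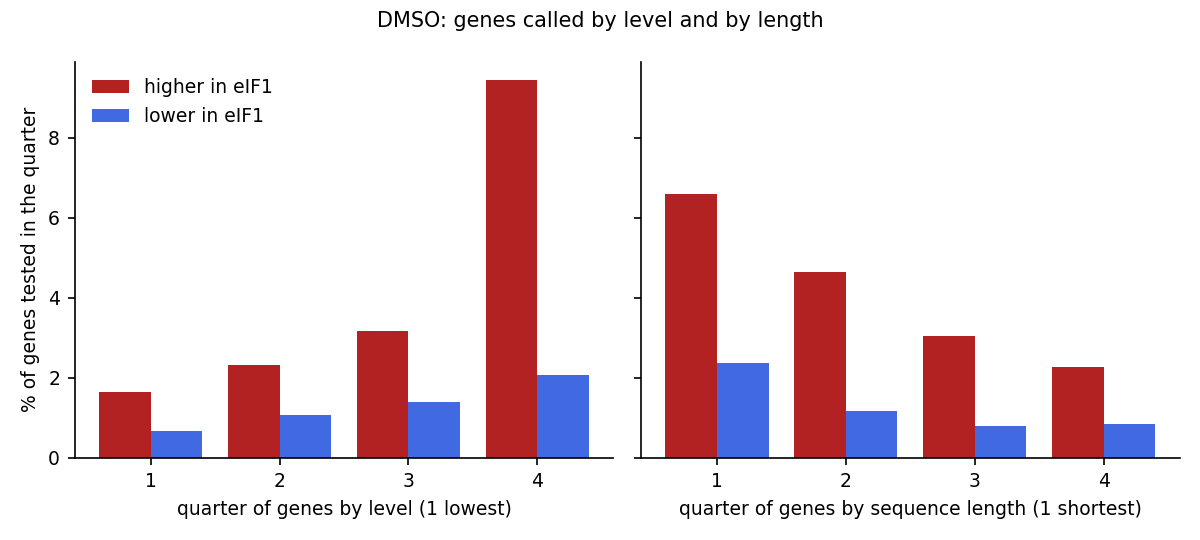
Percent of tested genes called higher (red) or lower (blue) in eIF1, with genes split into 4 equal parts by level (left, lowest to highest) and by length of the counted sequence (right, shortest to longest). The red bars rise from 1.65% to 9.43% with level and fall from 6.59% to 2.28% with length.

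The same factors were compared in libraries treated for 1 h with 5 µM i14G1-12, which share no library with the DMSO comparison. Of 7748 genes tested there, 20 (0.258%) were higher in eIF1 and 0 (0%) lower. The unadjusted edgeR p was under 0.05 for 1088 genes, 509 of them lower. DESeq2 called 102 higher and 23 lower. Of the 20, 18 (90%) were also called higher in DMSO, which is 4.59% of the 392. This count rested on single libraries: it was 2, 8 and 5 without eIF1 a, b and c under i14G1-12, 284, 12 and 2 without eIF4G1 1, 2 and 3, and 15 with total counts.

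Among called genes tested in both treatments, the directions seen in DMSO were mostly kept. The filter was run again under i14G1-12 and left 383 of 392 higher and 104 of 123 lower genes. A scarce gene can pass it only through the group where it is high, which can favour a kept direction. How far this raises the percentages below was not tested. Of the 383 higher genes that were tested under i14G1-12, 360 (93.99%) were above 0 there, where 48.3% of all 7691 genes tested in both were. Their median log2 difference was 0.79, with quartiles of 0.47 and 1.13, against 1.30 in DMSO for the same genes. Of the 104 lower genes tested, 95 (91.3%) were below 0, where 51.7% of all genes were, and their median was -0.79 against -1.17 in DMSO. Genes chosen for a difference in one set of libraries tend to show a smaller one in another set, so the smaller medians are given as values only. Across the 7691 genes, Pearson's r between the differences was 0.57 and Spearman's rho 0.52. ENSG00000173812 had a log2 difference of 5.73 (SE 0.54, edgeR adjusted p = 3.16e-06) under i14G1-12. Tested directly, the difference changed between treatments for 2 of 9287 genes (0.0215%), ENSG00000204388 and ENSG00000204389, and 348 genes had an unadjusted p under 0.05.

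**Figure D4:**
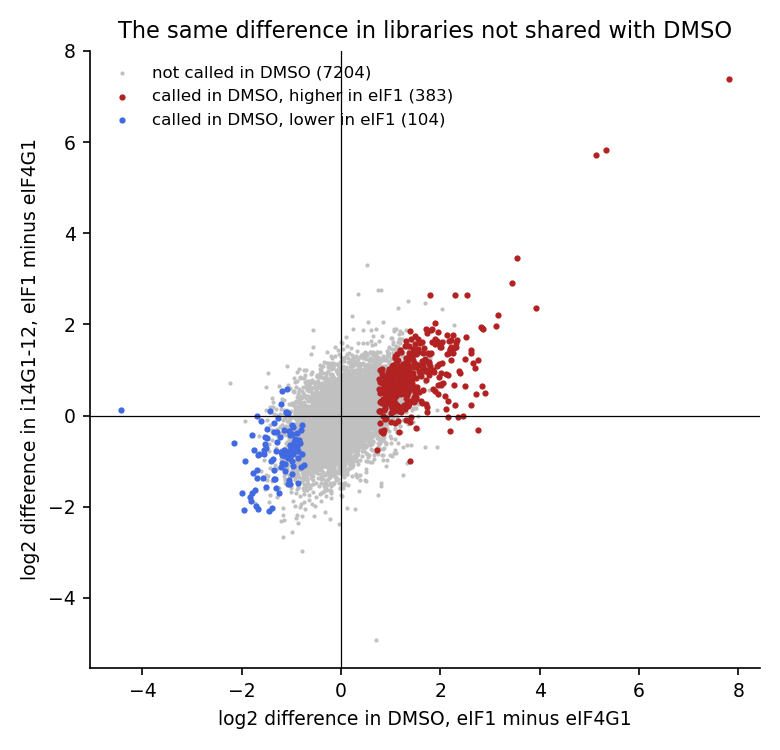
Log2 difference (eIF1 minus eIF4G1) under i14G1-12 against that in DMSO, 1 point per gene tested in both; red and blue points were called higher and lower in DMSO. Most red points lie above 0 on the vertical axis (360 of 383) and most blue points below it (95 of 104).

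The counts held by the called genes were then read in all 20 libraries. Shares are of all counts of a library. ENSG00000173812 was left out of the higher genes but stayed in that total, which makes the eIF1 shares smaller. Without ENSG00000173812, the genes called higher held 15.6% to 19.8% of counts in eIF1 DMSO and 8.85% to 10.7% in eIF4G1 DMSO, the libraries that chose them. In libraries that played no part in the choice they held 19.6% to 21.9% in eIF1 and 14.1% to 18.3% in eIF4G1 under i14G1-12. Within i14G1-12 the eIF1 and eIF4G1 libraries did not overlap. The genes were chosen for being low in eIF4G1 DMSO, which by itself puts those libraries low, so nothing is read from their distance to libraries outside the choice. In eIF2a complexes the share was 13.7% in both DMSO libraries and 13.3% to 13.7% under i14G1-12. In eIF3 complexes it was 7.93% to 10.05% in DMSO and 10.5% to 16.1% under i14G1-12.

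The genes called lower held 0.667% to 0.980% of counts in eIF1 DMSO and 2.10% to 2.61% in eIF4G1 DMSO. Under i14G1-12 they held 0.513% to 0.853% in eIF1 and 1.25% to 1.69% in eIF4G1, with no overlap. In eIF2a complexes they held 1.35% to 1.64% and in eIF3 complexes 1.43% to 2.07%, each over 4 libraries. All of these lay above the eIF1 libraries under i14G1-12, which played no part in the choice. The genes were chosen for being low in eIF1 DMSO, which by itself puts those DMSO libraries low. Nothing is therefore read from the distance of the eIF1 DMSO libraries to libraries outside the choice. One of the eIF2a DMSO libraries had only 10033 counts and one of the eIF3 DMSO libraries 59179. A gene's share can be low because fewer complexes sat on its mRNA or because the cells held less of that mRNA, in fewer cells or at less per cell, and these cannot be told apart without input.

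**Figure D5:**
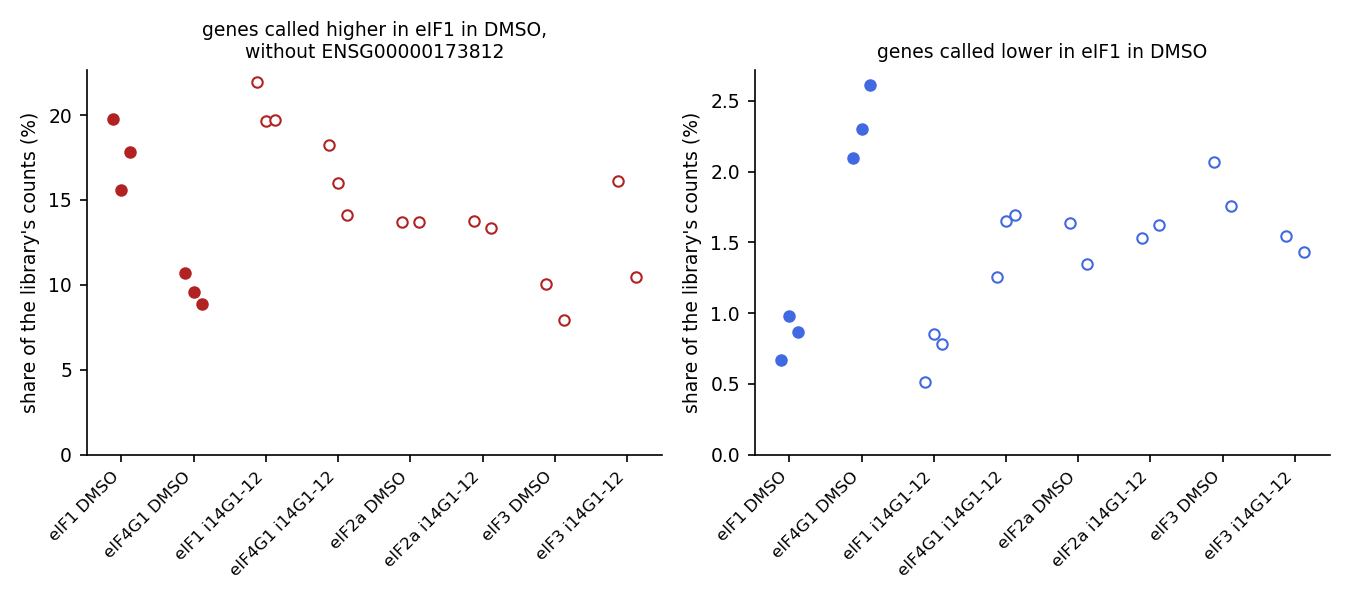
Share of each library's counts (%) held by the genes called higher in eIF1 in DMSO (left, ENSG00000173812 left out of the genes) and by those called lower (right), 1 point per library. ENSG00000173812 stays in each library's total. Libraries that chose the genes are filled and all others open. On the left, the open points of eIF1 under i14G1-12 (19.6% to 21.9%) lie above those of eIF4G1 under i14G1-12 (14.1% to 18.3%), and on the right they lie below them. The distance between filled points is set by the choice of genes.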

How the data were processed

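The authors deposited 4 tables of unnormalised counts, 1 table for each immunoprecipitation, in the column layout of featureCounts. Per the submitters' processing notes, cutadapt, Trimmomatic, Bowtie, HISAT2 and featureCounts were used with build hg38; versions, and the treatment of multi-mapping reads, are not given in the sources used here. Per the file headers, each ID is its own contig, given as 1 interval from position 1 in 19025 rows and as several in the other 4, so reads were counted on gene-wise sequences, and reads of near-identical genes can be split or lost.

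Columns were assigned by name. Numbers in the eIF1 column names do not match replicate numbers in the labels, so these columns went to their group only. The labels do not say whether replicates were separate cultures, and p-values therefore reflect variation among these libraries that may be purely technical.

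The 6 DMSO libraries were fitted in edgeR 4.0.16 (R 4.3.3; filterByExpr with a minimum count of 10, TMM, estimateDisp, glmQLFit, glmQLFTest), with Benjamini-Hochberg adjustment over all genes tested and a threshold of 0.05; SE is the absolute log2 difference over the square root of F. The i14G1-12 libraries were fitted the same way. CPM values are on TMM-scaled libraries. Of the 19029 IDs, 9566 did not pass the filter, 4157 of them with 0 counts in all 6 libraries. Alternatives were DESeq2 1.42.0 size factors and test, total counts, no filter, a minimum of 30 counts, all 20 libraries in 1 fit, a naming minimum of 50 CPM and each library left out. Runs without ENSG00000173812, in place of a planned run without the tagged gene, the thinned runs, the interaction and the i14G1-12 runs without 1 library were added after seeing the data. The pipeline was tested on simulated data. Named genes were those called, with no overlap and at least 20 CPM in the higher group, 12 per direction; since IDs are unnamed, the first and the most abundant higher and the first 2 lower are printed. The comparison, lists and rules were chosen with earlier results of these data known. Intervals and floors cover counting error only.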

Additional observations from a re-analysis of the deposited data

Results flagged for a closer look

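The difference between eIF1 and eIF4G1 complexes itself differed between DMSO and i14G1-12 for 2 of 9287 genes (0.0215%), tested as an interaction in 1 fit to the 12 eIF1 and eIF4G1 libraries (edgeR, adjusted p under 0.05). ENSG00000204388 had a log2 difference of 2.77 in DMSO and -0.32 under i14G1-12, and the change between them was 3.05 (SE 0.37, edgeR adjusted p = 1.49e-05). For ENSG00000204389 the differences were 2.19 and -0.35, with a change of 2.50 (SE 0.41, edgeR adjusted p = 0.00343). Whether these genes share reads was not tested. The unadjusted p was under 0.05 for 348 genes, and 464 would be expected if no gene differed.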

How the results depend on the processing

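No paired analysis was possible because numbers in the eIF1 column names do not match those of the labels. The planned run without the gene of the tagged factor was replaced by one without ENSG00000173812, and the gene lists were not run. The number of called genes, 515, stayed within 1.5 times of itself with DESeq2 size factors (517), total counts (700), no filter (557), a minimum of 30 counts (543) and the DESeq2 test (426). It was 194 (162 higher, 32 lower) with all 20 libraries in 1 fit, 335 (249 higher, 86 lower) after thinning, and 180 to 548 with 1 library left out (149 to 442 higher, 31 to 114 lower). Total counts gave 177 higher and 523 lower, and 248 and 282 without ENSG00000173812. The log2 difference of ENSG00000164309 went from -6.16 without eIF1 b to 1.40 without eIF4G1 3. The i14G1-12 count of 20 became 125 by DESeq2 and 2 to 284 with 1 library left out. Fewer libraries or reads are the alternatives themselves; other causes were not tested. Calls among genes near 20 CPM rest on few counts in the eIF4G1 libraries, the shallowest of which holds 243145.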
